A study of Mus musculus with 32 samples.

Results

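The spinal cord of non-transgenic control mice was compared between 1.5 months of age and 10-12 months. These ages are called young and old here for short, which names no stage of life. The 12 libraries were chosen by their labels alone, 6 at each age, out of 32 in the series. All mice came from a cross of the FVB/N, C57BL/6 and DBA/2 strains, and no mouse used in this comparison carried a transgene. The other libraries were 5 from controls at 6 months and 15 from mice carrying 12 copies of CHMP2Bintron5, a mutant form of an ESCRT-III subunit linked to frontotemporal dementia, of which 5 were at 1.5 months, 4 at 6 months and 6 at 10-12 months. Gene expression was measured by stranded mRNA sequencing of whole cord, so that a level is an average over neurons, glia, vessels, meninges and any attached nerve root. In such bulk RNA, fewer cells of a type and less RNA per cell cannot be told apart. No label says that each sample came from its own animal or names a batch or a sex, so p-values measure the spread between these samples, and age and any difference in processing between the age groups cannot be told apart.

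Myelin in the cord is made by oligodendrocytes, which wrap axons in a membrane rich in cholesterol and galactolipids. Myelin formation in the mouse cord is most active after birth and continues at a lower rate into adult life. In the nerve roots the same task falls to Schwann cells, whose myelin uses a partly different set of proteins. Cholesterol does not cross from blood into the nervous system, and the cord makes its own through a pathway whose enzymes are controlled together by the SREBP transcription factors.

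Between 28368376 and 85348326 reads per library were assigned to genes at 1.5 months, and between 38745901 and 53928910 at 10-12 months. Mitochondrial transcripts took 4.51% ± 0.61 of counts at 1.5 months and 4.75% ± 0.82 at 10-12 months (SD, n = 6 each, exact permutation p = 0.6). The label spinal cord was met by neuronal, astrocyte and oligodendrocyte markers, which were abundant in every library. The summed level of 11 sensory neuron markers of the dorsal root ganglion, of which 9 passed the filter for testing, was between 5.22 and 8.22 CPM in these 12 libraries. The summed level of 10 skeletal muscle markers was between 4.84 and 20.6 CPM in 5 of the libraries at 1.5 months, 187 CPM in the other (replicate 2) and between 8.68 and 97.7 CPM at 10-12 months. Endogenous Chmp2b, the mouse gene matching the transgene, was at 63.7 ± 7.6 CPM at 1.5 months and 56.1 ± 9.67 CPM at 10-12 months (SD, n = 6 each, adjusted p = 0.477). Thy1 and Chrna2 separated the genotypes in every library but 1: Thy1 was between 452 and 755 CPM in 16 control libraries and between 1320 and 1860 CPM in the 15 transgenic ones, and Chrna2 between 2.21 and 3.94 CPM and between 0.52 and 0.878 CPM. In the library labelled as a control of 6 months, replicate 5, Thy1 stood at 1120 CPM and Chrna2 at 1.91 CPM. Both values lie outside the range of the other controls, on the side of the transgenic libraries, and so go against its label. It belongs to neither age compared here but enters the shared fit, and without it 864 genes were called between 1.5 and 10-12 months in place of the 837 given below.

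Of 20015 genes tested, 837 (4.18%) differed between the ages at an adjusted p under 0.05 in edgeR's quasi-likelihood test, 335 of them higher at 10-12 months (1.67%) and 502 lower (2.51%). A gene past this threshold is called here. Changes of at least 2-fold were found for 82 genes that rose (0.41%) and 63 that fell (0.315%). In 139 of the genes that rose and 281 of those that fell, no library of one age overlapped with any library of the other in CPM, the read count scaled to a common total by TMM. Over all genes tested the groups did not overlap for 184 higher (0.919%) and 347 lower genes (1.73%). The balance of directions varied with the fit. A fit on the 12 libraries alone gave 136 higher and 302 lower genes. With a term for the replicate number added to that fit, 612 were higher and 564 lower. The number of calls was 551 without replicate 3 at 1.5 months, the shallowest library, and 553 without replicate 6 at 10-12 months. Fold changes leaned with base composition: the median log2 fold change was -0.02 in the 10% of genes poorest in G and C and 0.20 in the 10% richest. A fit that corrected each library for GC content and gene length called 2163 genes, among them 788 of the 837, and all 837 kept their sign.

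The lists with the highest shares of called members were those of myelin lipid synthesis, myelin and extracellular matrix, and all but 1 of their called members fell. In the plot of gene lists, cholesterol synthesis stands first, with 19 of 25 members called lower and none higher. The lists whose called members rose had few of them: 3 of 20 for complement, 3 of 22 for MHC class I presentation and 2 of 13 for MHC class II presentation.

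**Figure D1:**
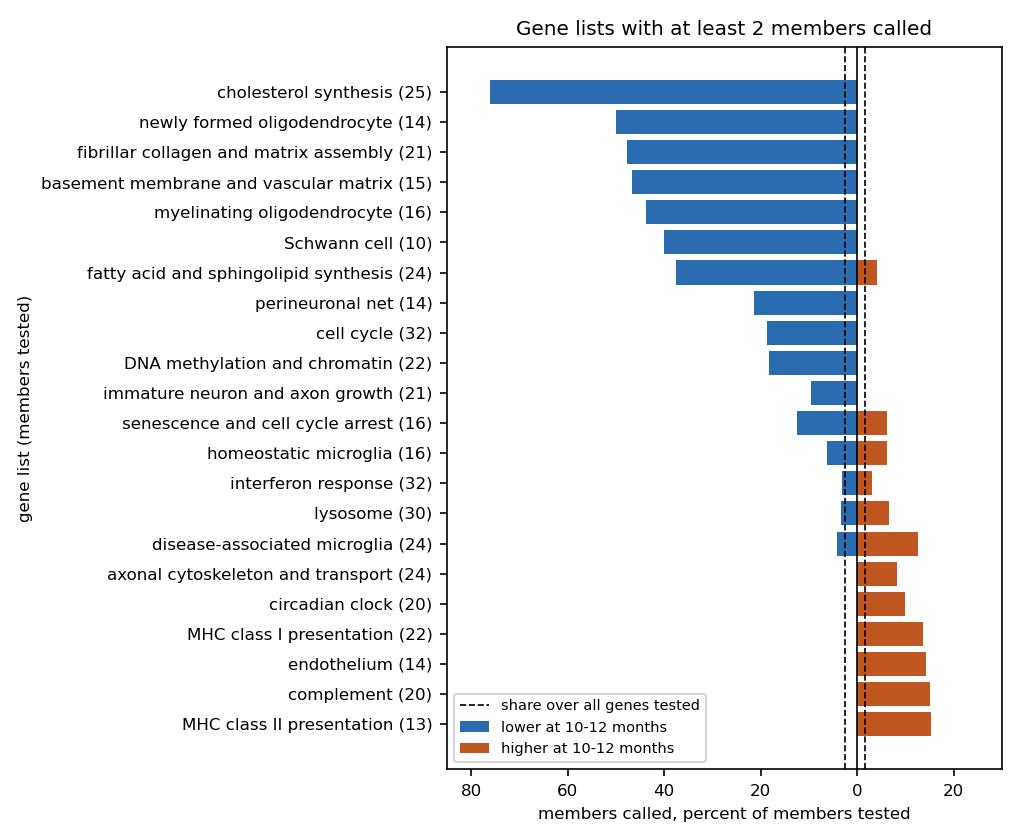
Share of the tested members of each gene list called lower (blue, to the left) or higher (orange, to the right) at 10-12 than at 1.5 months in control cord, in percent of members tested, with the number tested in brackets. Dashed lines mark the shares over all genes tested, 2.51% lower and 1.67% higher, and cholesterol synthesis, with 76% called lower, lies farthest from them.

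Myelin genes fell, but not all of them. Of 16 markers of myelinating oligodendrocytes, 7 were called lower and none higher, and the median log2 fold change over the 16 was -0.36, beside 0.02 over all genes tested. Mal (ENSMUSG00000027375, 2:127633226-127656695 in GRCm38, minus strand), which encodes a proteolipid that sorts cargo to the myelin membrane, ranged from 1060 to 1600 CPM (median 1200) when young and from 397 to 567 CPM (median 517) when old. The lowest young library was above the highest old one. This was a 2.47-fold fall, and on the log2 scale, on which all fold changes here carry the SE of the model, it was -1.31 ± 0.11 (adjusted p = 2.67e-09). Mog, the gene of a glycoprotein on the outermost myelin surface, ranged from 417 to 509 CPM (median 484) and then from 204 to 257 CPM (median 223), with a log2 fold change of -1.07 ± 0.10 (adjusted p = 1.98e-08). For Mog too, the groups did not overlap.

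Cldn11, the claudin of the tight junctions within central myelin, fell by 0.88 on the log2 scale (SE 0.10, adjusted p = 8.31e-07), and Mobp, a cytoplasmic protein of compact myelin, by 0.53 (SE 0.10, adjusted p = 0.000862). Mbp, which encodes myelin basic protein, a main protein of compact central myelin, was at a mean of 11180 CPM at 1.5 months and 9065 CPM at 10-12 months and was not called (log2 fold change -0.30 ± 0.15, adjusted p = 0.274). Mag, Mbp, Apod and Car2 were among the 9 members that did not pass the test. The log2 fold changes of these 4, picked out after their values were seen, were between -0.30 and 0.17. The summed level of the 16 markers was 31250 ± 2447 CPM at 1.5 months and 21280 ± 1802 CPM at 10-12 months (SD, n = 6 each, exact permutation p = 0.00216, the smallest that 6 against 6 libraries can give, and 0.0223 adjusted over 31 library measures). Such a sum is set mainly by the most abundant members, Mbp among them, and does not stand for each of the 16.

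Genes of the newly formed oligodendrocyte, the stage between precursor and myelinating cell, fell as well. Of 14 tested, 7 were called lower and none higher (median log2 fold change -0.35). Gpr17, a receptor that marks cells about to myelinate and is switched off as they mature, was between 62.1 and 98.4 CPM at 1.5 months (median 75.9) and between 18.7 and 38.0 CPM at 10-12 months (median 26.5), a 2.75-fold fall (log2 fold change -1.46 ± 0.17, adjusted p = 1.19e-06). Rras2, a small GTPase, fell by 0.75 (SE 0.12), Neu4, a sialidase, by 0.56 (SE 0.11), Mycl, a MYC family factor, by 0.44 (SE 0.10) and Fyn, a kinase that relays axonal signals in oligodendrocytes, by 0.24 (SE 0.05) on the log2 scale, all called. The highest old library and the lowest young library overlapped for Mycl and not for the other genes in this group that are named here. Among 14 markers of oligodendrocyte precursors, only Vcan, a proteoglycan also counted in the perineuronal net, was called lower (38.6 to 58.0 CPM against 32.4 to 41.7 CPM, adjusted p = 0.00739).

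**Figure D2:**
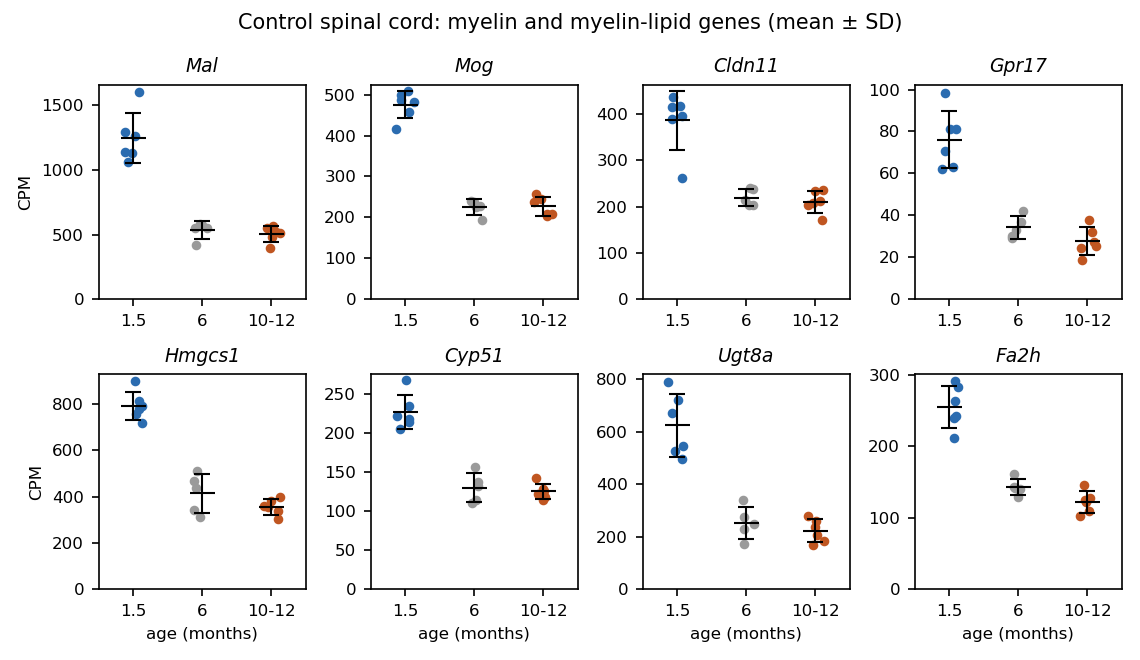
CPM of 4 myelin or oligodendrocyte genes (top) and 4 lipid synthesis genes (bottom) in each control library at 1.5 months (blue), 6 months (grey) and 10-12 months (orange), with the mean and SD as bars. The grey points include replicate 5. In all 8 genes the libraries at 10-12 months lie below every library at 1.5 months, and those at 6 months lie closer to the old than to the young libraries.

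The cholesterol pathway fell along most of its length. Of 25 members tested, 19 were called lower and none higher, 15 of them without overlap, and the median log2 fold change was -0.62. Hmgcs1 (ENSMUSG00000093930, 13:119690379-119708260, plus strand), which makes HMG-CoA at the entry to the pathway, was between 718 and 900 CPM at 1.5 months (median 785) and between 305 and 398 CPM at 10-12 months (median 356). Its log2 fold change was -1.16 ± 0.11 (adjusted p = 3.5e-08), the greatest fall in the list. Sqle, which oxidises squalene at the first step that needs oxygen, went from a median of 137 CPM (133 to 159) to 81.2 CPM (74.8 to 95.1), and its log2 fold change was -0.76 ± 0.08 (adjusted p = 5.41e-07). Old and young libraries did not overlap for either enzyme.

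Cyp51 and Msmo1 remove methyl groups from lanosterol and its products in the later part of the pathway. Cyp51 was between 206 and 268 CPM when young (median 220) and between 115 and 143 CPM when old (median 124), a 1.81-fold fall (log2 fold change -0.86 ± 0.09, adjusted p = 7.74e-08). Msmo1 was between 219 and 293 CPM (median 236) and then between 128 and 159 CPM (median 135), a log2 fold change of -0.83 ± 0.09 (adjusted p = 6.75e-07). Among the 6 members that were not called were Mvk, Mvd and Pmvk, which act on mevalonate, the lipid carrier Stard4 and Srebf2, the transcription factor of the pathway. Srebf2 itself was at a mean of 152 CPM at 1.5 months and 158 CPM at 10-12 months (log2 fold change 0.05 ± 0.12, adjusted p = 0.887).

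**Figure D3:**
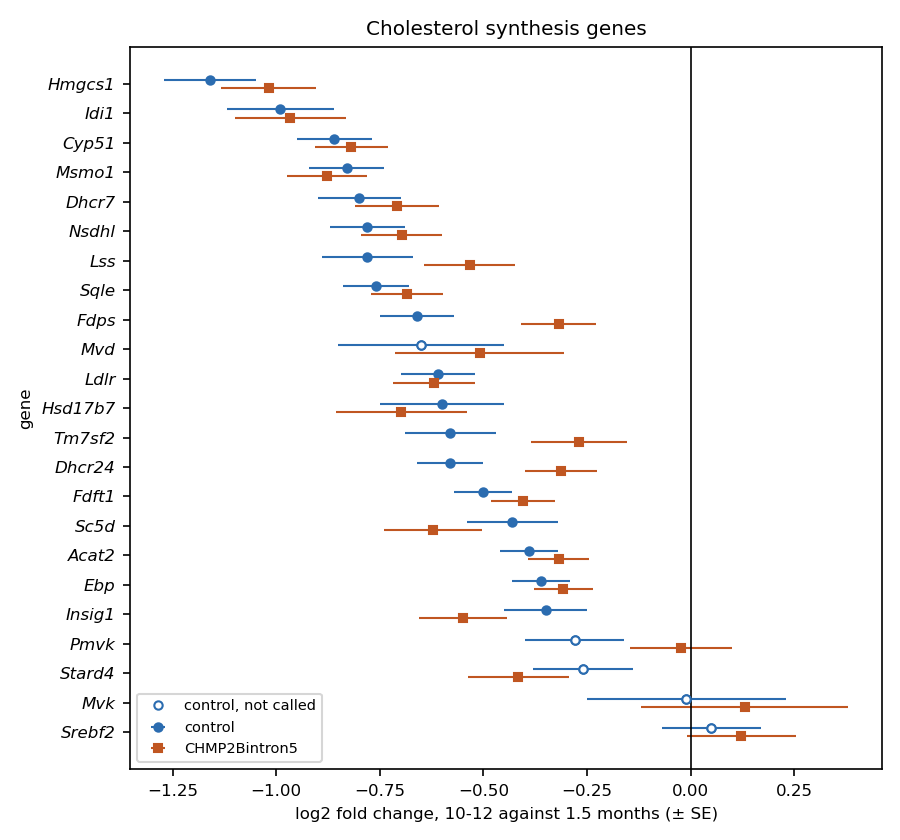
Log2 fold change from 1.5 to 10-12 months with its SE for cholesterol synthesis genes in control cord (blue circles, open where not called) and in CHMP2Bintron5 cord (orange squares), which share no library. All plotted control values but that of Srebf2, at 0.05, are below 0, and the lowest is -1.16 for Hmgcs1.

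The promoters of genes that move together can be read for shared letters. RefSeq promoter sequence on GRCm38.p6 was at hand for 17 of the 25 genes, and the 250 bases before the start of each were searched on both strands. The sterol regulatory element was written TCACNCCAC, where N is any base, and the box bound by NF-Y, a factor known to act with SREBP, was written CCAAT. Some genes have more than 1 promoter entry, 20 in all for the 17 genes, and a gene was counted when any of its entries held the letters. The box was present for 16 of the 17 genes (94.1%), all but Acat2, and for 37.5% of 27025 genes counted in the same way. By entry, 16 of the 20 (80%) held it, beside 33.8% of all 32851 entries. Of these 16 genes, 12 were called lower. The sterol element was found in Hmgcs1 alone among the 17 (1.22% of all genes). The shorter letters CACNCCAC were in 3 of the 17 (6.05% of all genes), TCANNNCAC in 4 (12.8%) and TCACCTGAC in none (0.307%). A match is a description of these letters, and no match says nothing of the factor. The promoters of the 3 called genes with the smallest adjusted p among those with an entry are shown because each carries the box, in one orientation or the other, and Hmgcs1 carries the sterol element as well. They are Hmgcs1 (chr13:119690101-119690350, plus strand), Cyp51 (chr5:4104698-4104947, minus strand) and Msmo1 (chr8:64733579-64733828, minus strand), written from 5′ to 3′ with matches to CCAAT, to its reverse complement ATTGG and to TCACNCCAC in capitals.
Hmgcs1: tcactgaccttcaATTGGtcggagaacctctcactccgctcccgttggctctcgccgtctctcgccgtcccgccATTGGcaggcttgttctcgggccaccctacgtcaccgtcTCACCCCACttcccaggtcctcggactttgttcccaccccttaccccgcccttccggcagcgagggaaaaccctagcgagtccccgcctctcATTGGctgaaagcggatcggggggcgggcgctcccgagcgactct
Cyp51: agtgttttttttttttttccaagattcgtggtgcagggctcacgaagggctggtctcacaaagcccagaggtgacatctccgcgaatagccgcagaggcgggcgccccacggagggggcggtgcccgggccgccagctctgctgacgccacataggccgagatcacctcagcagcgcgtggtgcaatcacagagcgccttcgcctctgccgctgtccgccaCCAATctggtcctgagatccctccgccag
Msmo1: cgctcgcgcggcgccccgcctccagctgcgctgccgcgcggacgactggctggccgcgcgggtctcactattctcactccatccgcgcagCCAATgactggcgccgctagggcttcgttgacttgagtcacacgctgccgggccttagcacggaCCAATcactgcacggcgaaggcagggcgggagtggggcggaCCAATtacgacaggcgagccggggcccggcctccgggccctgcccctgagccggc
In Hmgcs1 the box lies in the ATTGG orientation at 3 places, and TCACCCCAC lies between them. Msmo1 has the box at 3 places in the CCAAT orientation and Cyp51 has it once, near the start.

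Sphingolipid and fatty acid genes of myelin fell with the cholesterol genes. Of 24 tested, 9 were called lower and 1 higher (median log2 fold change -0.16). Ugt8a, which transfers galactose to ceramide to make the characteristic myelin galactolipid, went from a median of 608 CPM (494 to 787) to 221 CPM (167 to 280), a 2.81-fold fall (log2 fold change -1.49 ± 0.17, adjusted p = 1.19e-06). Fa2h, which hydroxylates the fatty acids of those lipids, had the smallest adjusted p of all genes named here (7.9e-10): it was between 212 and 291 CPM when young (median 253) and between 102 and 146 CPM when old (median 123), a log2 fold change of -1.07 ± 0.08. Cers2, the ceramide synthase for very long chains, fell by 0.68 (SE 0.08), Elovl6, a fatty acid elongase, by 0.71 (SE 0.11), and Acss2, which makes acetyl-CoA from acetate, by 0.64 (SE 0.05) on the log2 scale. No library of one age overlapped with the other for these 5 genes. The member called higher was Srebf1, the SREBP gene that acts mainly on fatty acid synthesis (39.3 CPM against 72.3 CPM on average, log2 fold change 0.88 ± 0.23, adjusted p = 0.0204). That call was lost without replicate 3 or 4 at 1.5 months and without replicate 1 or 6 at 10-12 months. Fasn, the fatty acid synthase, was at 220 CPM and 248 CPM on average and was not called (adjusted p = 0.653). Srd5a1, a steroid reductase, fell from a median of 19 CPM (16.6 to 22) to 10.4 CPM (8.38 to 12.6; adjusted p = 1.65e-07). Npc2, which carries cholesterol out of lysosomes, fell by 0.45 on the log2 scale (SE 0.07, adjusted p = 4.43e-05).

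Genes of the extracellular matrix formed the next block. All 21 fibrillar collagen and matrix assembly genes had a negative log2 fold change, 10 of them were called lower and the median was -0.33. Col3a1 (ENSMUSG00000026043, 1:45311538-45349706, plus strand), a collagen of vessel walls and soft connective tissue, was between 84.3 and 148 CPM at 1.5 months (median 118) and between 21.7 and 35.7 CPM at 10-12 months (median 32.4). It fell 3.67-fold (log2 fold change -1.87 ± 0.22, adjusted p = 1.54e-06). Col1a1 and Col1a2 encode the chains of type I collagen. Col1a1 went from a median of 81.3 CPM (59.9 to 151) to 28.3 CPM (13.9 to 49.4; log2 fold change -1.79 ± 0.30, adjusted p = 0.000268), and Col1a2 from 246 CPM (218 to 336) to 90.8 CPM (71.9 to 128; log2 fold change -1.46 ± 0.18, adjusted p = 2.94e-06). Lox, which cross-links collagen and elastin, fell 3.46-fold (log2 fold change -1.79 ± 0.34, adjusted p = 0.00146). Eln, elastin itself, fell by 1.23 (SE 0.18), and Mfap4, a microfibril protein outside the list, by 1.60 (SE 0.26) on the log2 scale. The microfibril gene Fbn2 fell by 0.42 (SE 0.08). In none of these 7 genes did the age groups overlap.

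Basement membrane genes, which encode the sheet beneath vessels and at the surface of the cord, gave 7 of 15 lower and none higher (median log2 fold change -0.47). Nid1, which links laminin to collagen IV, was between 71.4 and 122 CPM when young (median 89.6) and between 38.6 and 49.3 CPM when old (median 39.6), a log2 fold change of -1.14 ± 0.17 (adjusted p = 4.52e-05). Col4a1, the basement membrane collagen, fell by 0.87 (SE 0.13), Nid2 by 0.86 (SE 0.14), Col15a1 by 0.69 (SE 0.13) and the laminin chain Lamc1 by 0.59 (SE 0.08) on the log2 scale. Old and young libraries did not overlap for these 5 genes either. Other basement membrane genes went the other way without passing the test: Lamb2, a laminin chain of vessels and synapses, had a log2 fold change of 0.54 ± 0.23 (adjusted p = 0.192) and Lama5 one of 0.41 ± 0.22 (adjusted p = 0.327).

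Fibroblasts of the meninges make much of this matrix. The summed level of 14 meningeal and fibroblast markers was 676 ± 133 CPM at 1.5 months and 621 ± 53.5 CPM at 10-12 months (SD, n = 6 each, exact permutation p = 0.374), with a range of 557 to 839 CPM and then 543 to 698 CPM. None of the 14 was called in edgeR, and their median log2 fold change was 0.02. With 4.18% of all genes called, a list of this size without a call is close to the background. In other fits 1 of the 14 was called lower (12 libraries alone, 17 control libraries, DESeq2 or GC and length offsets), and with a replicate term 3 were called lower and 1 higher. None of 11 pericyte and smooth muscle markers was called (median 0.19), beside 2 higher with the offsets. Among 14 genes of the perineuronal net, the matrix coat around certain neurons, 3 were called lower. They were Vcan, Ncan (neurocan, log2 fold change -0.53 ± 0.09, adjusted p = 0.000158) and Has2, a hyaluronan synthase (-0.87 ± 0.21, adjusted p = 0.0156).

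Genes of Schwann cells, which myelinate the nerve roots, were mixed. Pmp22, which encodes a membrane protein of Schwann cell myelin, was between 1800 and 3070 CPM at 1.5 months (median 1860) and between 503 and 1050 CPM at 10-12 months (median 737), a 2.76-fold fall (log2 fold change -1.46 ± 0.18, adjusted p = 2.48e-06). Of the 10 Schwann cell genes, 4 were called lower and none higher, Pllp and Mlip among them, and the median log2 fold change was -0.06. The call on Pllp (adjusted p = 0.0184) was lost without replicate 6 at 1.5 months, and that on Mlip (adjusted p = 0.0333) without any 1 of 6 libraries, replicates 1 and 3 at 1.5 months and replicates 2, 4, 5 and 6 at 10-12 months. Prx, which encodes periaxin of Schwann cell myelin, was at 297 CPM and 265 CPM on average (adjusted p = 0.747), and Egr2, the transcription factor of Schwann cell myelination, at 14 CPM and 15.3 CPM (adjusted p = 0.82). The summed level of the 10 genes was 6108 ± 1349 CPM and 2699 ± 771 CPM (SD, n = 6 each, exact permutation p = 0.00216). The amount of nerve root left on the cords was not measured, and its part in these values was not tested.

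**Figure D4:**
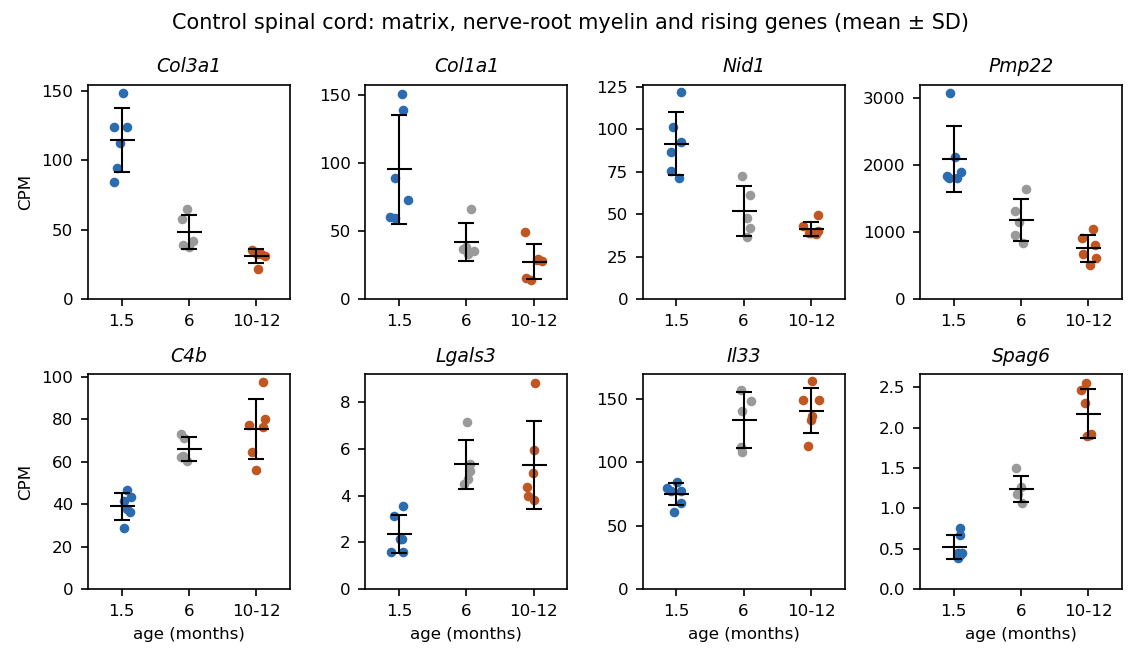
CPM of 4 falling matrix and Schwann cell genes (top) and 4 rising genes (bottom) in each control library at 1.5 months (blue), 6 months (grey) and 10-12 months (orange), with the mean and SD as bars. The young and old libraries do not overlap in any of the 8 genes.

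Genes of dividing cells were low at both ages, and some fell. Of 32 cell cycle genes, 6 were called lower and none higher, 27 had a negative log2 fold change and the median was -0.51. The count rested on single libraries: it was 2 without replicate 1 at 1.5 months, and 3 without replicate 2 at 1.5 months or without replicate 2, 3 or 5 at 10-12 months. Other single libraries left out gave up to 8, and DESeq2, the GC and length offsets and the offsets with a replicate term each gave 10. Prc1, which bundles microtubules in dividing cells, was between 2.72 and 4.01 CPM when young (median 3.29) and between 1.70 and 2.31 CPM when old (median 1.98; log2 fold change -0.72 ± 0.16, adjusted p = 0.00654). Rrm2, which supplies deoxynucleotides, fell by 0.85 (SE 0.19, adjusted p = 0.00813), with 1 or more libraries overlapping. Top2a, the topoisomerase of dividing cells, fell by 1.16 (SE 0.29, adjusted p = 0.0173), and its adjusted p was 0.0693 without replicate 1 at 1.5 months. Mki67, the usual marker of proliferation, was at 8.20 CPM and 3.65 CPM on average and was not called (adjusted p = 0.104).

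Of 22 genes of DNA methylation and chromatin, 4 were called lower and none higher. Ezh2, the histone methyltransferase of the Polycomb system, went from a median of 17 CPM (13.7 to 19.1) to 11.1 CPM (9.09 to 14.8; log2 fold change -0.54 ± 0.10, adjusted p = 0.00124). Igf2bp2, an RNA-binding protein of growing tissue, fell 2.26-fold (log2 fold change -1.18 ± 0.15, adjusted p = 3.34e-06), and Dnmt3a, a DNA methyltransferase that sets new marks, fell by 0.29 on the log2 scale (SE 0.06, adjusted p = 0.00187). In the list of immature neuron and axon growth genes, 2 of 21 were called lower: Marcksl1, an actin regulator (log2 fold change -0.86 ± 0.13, adjusted p = 6.59e-05), and Nrep (-0.53 ± 0.08, adjusted p = 7.28e-05). Of 16 genes of senescence and cell cycle arrest, 1 was called higher and 2 lower. Cdkn2a, which encodes the p16 and p19ARF inhibitors, was between 0.0391 and 0.236 CPM when young (median 0.0879) and between 0.0712 and 0.765 CPM when old (median 0.511). The ranges overlapped at this low level, the log2 fold change was 2.07 ± 0.43 (adjusted p = 0.00317), and the adjusted p was 0.0516 in a fit on the 12 libraries alone. The imprinted cell cycle inhibitor Cdkn1c fell by 0.66 on the log2 scale (SE 0.15, adjusted p = 0.00755). The number of lower members of this list was 1 without replicate 1, 3 or 5 at 1.5 months or without replicate 2, 5 or 6 at 10-12 months.

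Immune genes rose in small numbers. C4b (17:34728380-34743882, minus strand), a complement component made by glia, was between 28.6 and 46.9 CPM at 1.5 months (median 39.5) and between 56.3 and 97.7 CPM at 10-12 months (median 76.8). It rose 1.93-fold without overlap (log2 fold change 0.95 ± 0.13, adjusted p = 1.52e-05), with the caution that its close copy C4a can share reads with it. Of the 20 complement genes 17 had a positive log2 fold change (median 0.36), and C1qa and C3 were the other 2 called. The call on C3 (log2 fold change 0.42, adjusted p = 0.045) was lost without replicate 1, 2, 3 or 5 at either age. C1qa, a chain of the first complement component, had a log2 fold change of 0.76 ± 0.22 and an adjusted p of 0.0407, which was between 0.0588 and 0.15 without replicate 1, 3, 4 or 5 at 1.5 months or without replicate 1, 2 or 6 at 10-12 months. The complement count was 1 without replicate 1, 3 or 5 at 1.5 months or without replicate 1 or 2 at 10-12 months, and 5 without replicate 4 at 10-12 months.

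Microglial genes described in phagocytic and disease-associated states gave 3 of 24 higher and 1 lower (median log2 fold change 0.26). Lgals3, a lectin of activated microglia and macrophages, went from a median of 2.16 CPM (1.61 to 3.57) to 4.68 CPM (3.80 to 8.84), a log2 fold change of 1.15 ± 0.20 (adjusted p = 0.000342). Gpnmb, a glycoprotein of lipid-laden phagocytes, went from 0.352 CPM (0.216 to 0.803) to 1.73 CPM (1.08 to 2.24), a 4.26-fold rise (adjusted p = 0.000908). The ranges were apart for both. Igf1, a growth factor in the same list, fell by 0.99 on the log2 scale (SE 0.22, adjusted p = 0.0075). Trem2, a lipid-sensing receptor counted with the homeostatic microglia genes, rose 1.58-fold (log2 fold change 0.66 ± 0.15, adjusted p = 0.00861). Of those 16 homeostatic genes 13 had a positive log2 fold change (median 0.26), and the one called lower was Sparc, which other cells of the cord also make. The call on Sparc was lost in 11 of the 12 fits that left out a library, all but the one without replicate 1 at 10-12 months.

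Among genes of antigen presentation, H2-M3, a nonclassical class I molecule, rose from a median of 5.26 CPM (3.89 to 5.76) to 7.21 CPM (6.75 to 9.46; log2 fold change 0.55 ± 0.10, adjusted p = 0.00106). Tap2, a subunit of the peptide transporter, had a log2 fold change of 0.99 ± 0.25 (adjusted p = 0.0174), and its adjusted p was 0.0559 to 0.0599 without replicate 3 at 1.5 months or replicate 6 at 10-12 months. The class I count was 1 without either of those libraries. H2-Ob, a class II chaperone of B cells and dendritic cells, rose 1.76-fold (adjusted p = 0.00441), and Ctss, the protease that trims the class II invariant chain, was the other class II gene called (log2 fold change 0.55, adjusted p = 0.0338). The call on Ctss was lost in 8 of the 12 fits that left out a library. The class II count was 1 without replicate 2, 3, 5 or 6 at 1.5 months or without replicate 1, 2, 3 or 6 at 10-12 months. Il33, an alarmin that oligodendrocytes and astrocytes hold in the nucleus, was between 60.9 and 84.6 CPM when young (median 77.6) and between 113 and 164 CPM when old (median 142; log2 fold change 0.91 ± 0.14, adjusted p = 6.62e-05). Of 32 interferon response genes, 1 was called lower and 1 higher, with a median log2 fold change of -0.12. Mx2, an antiviral GTPase induced by interferon, fell 1.61-fold (adjusted p = 0.00813). Xaf1, an interferon-induced gene, had a log2 fold change of 0.37 ± 0.11 without overlap (adjusted p = 0.042), a call that was lost in 10 of the 12 fits that left out a library. None of the 14 T and NK cell markers tested was called in edgeR. The summed level of all 15 in the list was between 2.42 and 13.8 CPM when young and between 4.70 and 9.55 CPM when old.

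Outside the lists, the genes with the greatest rises were mostly of low level. Spag6, a protein of motile cilia, went from a median of 0.448 CPM (0.380 to 0.757) to 2.11 CPM (1.89 to 2.55), a 4.25-fold rise (log2 fold change 2.09 ± 0.19, adjusted p = 1.57e-08). A near-identical copy of Spag6 exists, so reads may be shared between the copies, and none of 12 ependymal markers, the ciliated cells of the central canal, was called. Inmt, a methyltransferase that acts on indoleamines, went from 0.636 CPM (0.359 to 0.969) to 2.64 CPM (1.93 to 4.74), a log2 fold change of 2.26 ± 0.28 (adjusted p = 4.47e-06). Gipr, the receptor for the gut hormone GIP, rose 2.76-fold from a median of 1.81 CPM (adjusted p = 2.72e-05). Tmc3 rose 3.43-fold, the transporter gene Slc22a18 3.34-fold, Prkag3, a regulatory subunit of AMP-activated kinase, 3.22-fold, the EGF family ligand Btc 2.26-fold, Slc9b2 2.13-fold and the sulfotransferase gene Sult2b1 2.12-fold, all called and without overlap. The antisense RNA A330015K06Rik had a mean of 2.29 ± 0.41 CPM at 1.5 months and 9.55 ± 1.88 CPM at 10-12 months (SD, n = 6 each, log2 fold change 2.06 ± 0.18, adjusted p = 9.47e-09). For this and the other antisense RNA named here, reads of the gene on the opposite strand may be included, because the strand setting of the counting was not stated.

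Of the genes that fell outside the lists, Calcoco2, an autophagy receptor, fell farthest, from a median of 1.87 CPM (1.23 to 3.46) to 0.321 CPM (0.206 to 0.416), a 6.8-fold fall (log2 fold change -2.77 ± 0.33, adjusted p = 2.15e-06). Rab7b, a small GTPase of late endosomes, went from 13.8 CPM (13.1 to 16.2) to 5.43 CPM (4.72 to 6.93), a log2 fold change of -1.35 ± 0.12 (adjusted p = 1.98e-08). Myrfl, a relative of the myelin transcription factor Myrf, fell 2.81-fold (adjusted p = 3.89e-06), Nkx2-2os, antisense to a factor of the oligodendrocyte lineage, 3.20-fold (adjusted p = 0.00608), and Gpr50, an orphan relative of the melatonin receptors, 2.78-fold (adjusted p = 7.3e-05).

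Few neuronal genes passed the test. None of 12 general neuronal markers was called in edgeR (median log2 fold change 0.11), nor any of 12 excitatory, 14 inhibitory or 9 sensory neuron markers, nor any of 35 nuclear genes of oxidative phosphorylation. Beside 4.18% of all genes, counts of 0 in lists of 9 to 14 genes are close to the background. GC and length offsets called 1 general and 2 inhibitory markers higher and 2 oxidative phosphorylation genes lower, and the fit on the 17 control libraries called 1 sensory marker lower. The fit on all 32 libraries held transgenic replicates 2 and 3 at 6 months, whose summed sensory markers were at 319 and 745 CPM. Such libraries add to the spread estimated for these genes, so the absence of sensory calls says little about change. Among 13 motor neuron markers, Vipr2, a receptor for vasoactive intestinal peptide, was called lower (log2 fold change -0.52 ± 0.13, adjusted p = 0.0209). That call was lost without replicate 5 at either age, on the 12 libraries alone (adjusted p = 0.0522) and with a replicate term (adjusted p = 0.0673). Snap25, a core protein of synaptic release, was between 2790 and 3490 CPM at 1.5 months and between 2810 and 3960 CPM at 10-12 months (log2 fold change 0.09 ± 0.08, adjusted p = 0.629). Among 24 genes of the axonal cytoskeleton and transport, 2 kinesin genes were called higher: Kif5a (log2 fold change 0.34 ± 0.07, adjusted p = 0.00169) and Kif1a (0.24 ± 0.05, adjusted p = 0.00859, and 0.0885 in a fit on the 12 libraries alone). Both overlapped between the ages. Nfasc, which encodes the neurofascin of the node of Ranvier and its myelin borders, fell by 0.30 on the log2 scale (SE 0.06, adjusted p = 0.00118). Gfap, the intermediate filament of astrocytes that is often raised in aged or injured cord, was between 1020 and 1340 CPM when young and between 930 and 1180 CPM when old (log2 fold change -0.20 ± 0.10, adjusted p = 0.257). Abcb1a, the drug efflux pump of cord vessels, rose 1.38-fold (adjusted p = 0.0142, and 0.0623 in a fit on the 17 control libraries).

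Control libraries at 6 months lie between these ages. They share the young libraries with one comparison and the old libraries with the other, so values are given side by side only. From 1.5 to 6 months 2058 genes were called (10.3%), 984 higher (4.92%) and 1074 lower (5.37%). From 6 to 10-12 months none was called in edgeR, 954 (4.77%) had an unadjusted p under 0.05, and DESeq2 called 7. Without replicate 5, the library that goes against its label, 2260 genes were called from 1.5 to 6 months, 1145 higher and 1115 lower, and 2 from 6 to 10-12 months, the small RNA genes Rny1 and Rny3. The first count was 1301, 1324 or 1129 without replicate 1, 2 or 3 at 6 months, and the second was 2, 2 or 4. Mog had a mean of 225 ± 18.5 CPM at 6 months (SD, n = 5) beside 226 ± 22.5 CPM at 10-12 months (SD, n = 6). Hmgcs1 was at 416 ± 84.8 CPM and then 355 ± 32.9 CPM, Col3a1 at 48.4 ± 12.3 CPM and then 31.2 ± 4.90 CPM, and Pmp22 at 1180 ± 312 CPM and then 757 ± 200 CPM. Spag6 had a mean of 1.24 ± 0.16 CPM at 6 months (SD, n = 5), beside the old median of 2.11 CPM. Without replicate 5 the means of the other 4 libraries were 225 ± 21.2 CPM for Mog, 391 ± 74.9 CPM for Hmgcs1, 44.3 ± 9.2 CPM for Col3a1, 1060 ± 205 CPM for Pmp22 and 1.28 ± 0.154 CPM for Spag6 (SD, n = 4). With or without it, no difference between 6 and 10-12 months passed the test for these 5 genes.

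The transgenic cords gave the same span of age in libraries that share none with the controls. In CHMP2Bintron5 cord 1318 genes were called between 1.5 and 10-12 months (6.59%), 624 higher (3.12%) and 694 lower (3.47%). Both genotypes called 377 genes, all in the same direction, which is 45% of the control calls and 28.6% of the transgenic calls. Of the 837 genes called in controls, 785 (93.8%) had the same sign in the transgenic cords, beside 69.4% of all genes tested. The median log2 fold change of the 335 genes that rose was 0.57 in control and 0.35 in transgenic cord, and that of the 502 that fell was -0.43 and -0.32, where the control values are those the genes were called on. Cholesterol synthesis had 19 of 25 genes called lower in transgenic cord too. Hmgcs1 had a log2 fold change of -1.02 ± 0.11 there, Ugt8a -1.54 ± 0.18, Mal -1.10 ± 0.11, Col3a1 -1.70 ± 0.23 and Pmp22 -1.35 ± 0.18, all called.

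The lists of microglia and complement genes leaned the opposite way in the transgenic cords. Disease-associated microglia genes had a median log2 fold change of 0.26 in control and -0.40 in transgenic cord, where 2 of 24 were called higher and 7 lower. The medians were 0.26 and -0.23 for homeostatic microglia and 0.36 and -0.21 for complement. The interferon response list leaned the same way in both genotypes, with a median of -0.12 in control and -0.52 in transgenic cord. Of its 32 genes 12 were called lower in transgenic cord, beside 1 in controls. The difference of a list between the genotypes was not tested.

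**Figure D5:**
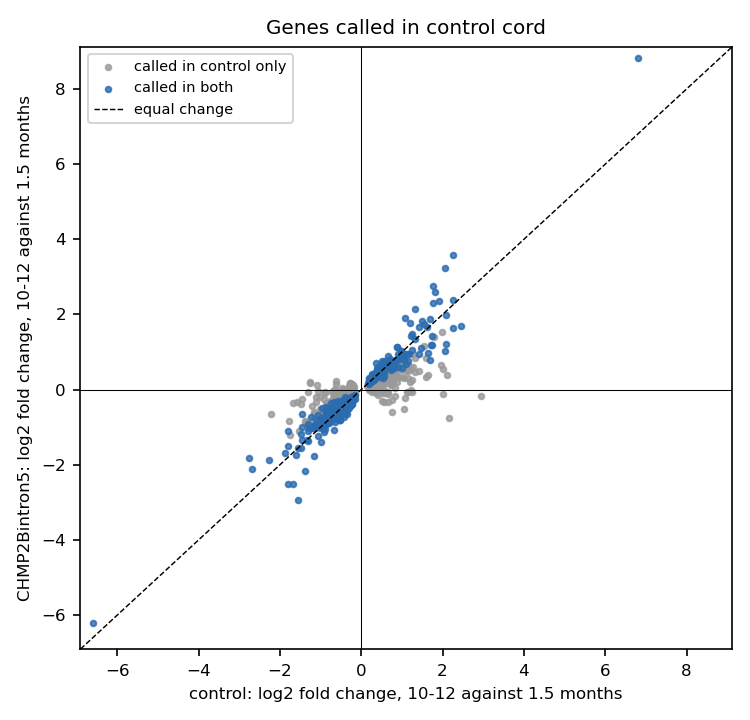
Log2 fold change from 1.5 to 10-12 months in control cord (x axis) and CHMP2Bintron5 cord (y axis) for the 837 genes called in controls, in blue where both genotypes called the gene and in grey where only controls did. Of the 837 points, 785 have the same sign on both axes, and the dashed line marks equal change.

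With all 32 libraries, 2 of the 20015 genes (0.00999%) were called for a difference of the age effect between the genotypes in edgeR. Fcrls, a marker of homeostatic microglia, had a log2 fold change of -0.58 ± 0.21 in controls (adjusted p = 0.115) and -2.27 ± 0.22 in transgenic cord, a difference of -1.69 (adjusted p = 0.0444). Pdcd1, the immune checkpoint receptor PD-1, was between 0.0360 and 0.184 CPM in young and between 0.210 and 0.946 CPM in old control cord. Its log2 fold change was 2.16 ± 0.36 in controls (adjusted p = 0.00022) and -0.75 ± 0.30 in transgenic cord (adjusted p = 0.119), a difference of -2.92 (adjusted p = 0.0135). Pdcd1 lies outside the rule for named genes because of its low level and was added after its values were seen. The call on Fcrls was lost in 16 of 23 fits that left out a library (adjusted p 0.0507 to 0.118), namely without replicate 2, 3, 4 or 5 of the transgenic libraries at 1.5 months, 1, 4 or 5 of those at 10-12 months, 1, 2, 3 or 4 of the controls at 1.5 months, or 1, 2, 3, 5 or 6 of those at 10-12 months. That on Pdcd1 was lost without control replicate 4 at 1.5 months (adjusted p = 0.0504).

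Without the 6-month control library that goes against its label, which is in neither genotype's contrast but adds to the estimate of spread, 10 genes were called for that difference, these 2 among them. The other 8 are given as a description, since this fit was added after the data were seen. They include Trem2, Mpeg1, Itgax, Clec7a, Ccl3 and Ccl4, all genes that microglia or macrophages express, and the cell cycle checkpoint gene Chfr. Trem2 had a log2 fold change of 0.66 ± 0.15 in controls and -0.33 ± 0.16 in transgenic cord, a difference of -0.99 (adjusted p = 0.147 with all libraries and 0.04 without that one). Its mean level was 8.08 and then 12.8 CPM in control cord, and 29 and then 23.1 CPM in transgenic cord. Itgax, an integrin of activated microglia and dendritic cells, had log2 fold changes of 0.76 ± 0.38 and -1.51 ± 0.35, a difference of -2.28 (adjusted p = 0.176 and 0.0179). Mpeg1, a pore-forming protein of macrophages, had 0.75 ± 0.19 and -0.60 ± 0.20, a difference of -1.35 (adjusted p = 0.0972 and 0.0179). For each of these 6 microglial or macrophage genes the log2 fold change was above 0 in control and below 0 in transgenic cord. The 6 were picked by a call on that difference, so the opposite signs come largely from the choice. In controls edgeR did not call Ccl4, Ccl3, Itgax or Clec7a (adjusted p = 0.102, 0.258, 0.288 and 0.484). Fcrls, called in the same test, had a negative log2 fold change in both genotypes.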

How the data were processed

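The values are whole-number read counts per Ensembl gene in 32 libraries, deposited by the authors. Per the submitters' processing notes, bcl2fastq 2.17.1.14, TopHat2 2.0.14, Bowtie2 2.1.0, HTSeq 0.6.1 and mm10 were used; the annotation release and strand setting: not given in the sources used here. Of 45706 identifiers, 45143 had a symbol in GENCODE M21 (GRCm38). Counts passing filterByExpr (minimum 10, total 15; 20015 genes) were fitted in edgeR 4.0.16 (R 4.3.3) with TMM, a quasi-likelihood test and 1 term per genotype and age over all 32 libraries. P-values were two-sided and adjusted over all genes by Benjamini-Hochberg. CPM used TMM-scaled sizes. Library measures were compared by two-sided exact permutation (924 divisions, smallest p 0.00216). Alternatives used DESeq2 1.42.0 or its size factors, other sets of libraries, no filter, GC and length offsets, a replicate block, and each library left out in turn, those at 6 months after the data were seen. Fits with a replicate block used the compared libraries alone.

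The genes and the 50 gene lists were chosen with earlier results of these data known. The rule for named genes took the 14 highest and 14 lowest fold changes among called genes with at least 1 CPM, no overlap and a name, the 8 smallest adjusted p, up to 5 called members of each list (the 2 most abundant where fewer than 2 were called), Chmp2b, Thy1 and Chrna2 as checks, and the 4 genes with the smallest adjusted p for the difference between genotypes. Other members of a list are named only to account for it, and some genes are not reported here. On counts simulated for these libraries (20015 genes), 92% of 2-fold and 61% of 1.5-fold changes were recovered, with 4 false calls. The changed genes all had a mean of at least 1 CPM. The simulated libraries held no trend of their own with GC content, so these rates may not hold for the real counts. Chi-square per degree of freedom between libraries of a group was 12.2 to 141, above what sequencing the same library again would give. This measure cannot say whether libraries came from the same animal.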

Additional observations from a re-analysis of the deposited data

Results flagged for a closer look

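In groups of 5 or 6 libraries, a library was picked out when its distance from the nearest other took up more of the whole range than Dixon's critical value allows. Chance does this in about 1 of 20 groups, and 17 of 210 checks were picked out. Replicate 3 at 1.5 months, the shallowest library, accounts for 8 of them. It was the highest of its group for Sqle (159 CPM, the others 133 to 142), Cers2 (353 CPM), Lox (58.8 CPM, the others 26.9 to 38.0), Pmp22 (3070 CPM, the others 1800 to 2120), Myrfl (3.75 CPM) and Mlip (62.5 CPM, the others 26.6 to 37), and the lowest for H2-M3 (3.89 CPM) and Gpr50 (0.901 CPM). All of these genes but Mlip (adjusted p = 0.153) were called without that library as well.

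Other libraries at 1.5 months stood apart in single genes. Replicate 4 was lowest for Cldn11 (261 CPM, the others 389 to 437) and highest for Mx2 (6.55 CPM). Replicate 5 was highest for Gpnmb (0.803 CPM) and replicate 6 for Fbn2 (14.3 CPM). Replicate 2 was highest for Acta1, the actin of skeletal muscle (42.8 CPM, the others 0.335 to 3.69), and for the summed muscle markers (187 CPM). At 10-12 months, replicate 1 was highest for Npc2 (184 CPM, the others 142 to 151) and replicate 3 lowest for Col3a1 (21.7 CPM, the others 31.3 to 35.7). At 6 months, control replicate 5 was highest for Thy1 (1120 CPM, the others 658 to 740).

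The age effect differed between transgenic and control cord for Fcrls, by -1.69 on the log2 scale (adjusted p = 0.0444), and for Pdcd1, by -2.92 (adjusted p = 0.0135), both in edgeR's test of the difference itself.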

How the results depend on the processing

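Of 89 single genes called in controls and followed through every alternative, 74 were called under each of them and without each library in turn, and none of the 89 changed sign. The calls lost most often were those on Sparc, C3, Xaf1, C1qa, Ctss and Mlip. These 89 were picked from the genes the text names and do not stand for all 837. Beside the 837 calls in controls, DESeq2 gave 1273, GC and length offsets 2163, and a fit on the 12 libraries alone 438. Leaving out 1 library gave 551 to 1034 calls. For CHMP2Bintron5 the 1318 calls became 2068 with the offsets and 866 without the filter. The 2 calls on the difference between genotypes became 21 with DESeq2, 16 with the offsets and 7 on the compared libraries alone, and 0 to 4 when 1 of the compared libraries was left out. Without control replicate 5 at 6 months they became 10. From 1.5 to 6 months the offsets gave 3678 calls beside 2058, and from 6 to 10-12 months DESeq2 gave 7 and no filter 5 beside 0. Leaving out 1 library at 6 months, an alternative added after the data were seen, gave 1129 to 2260 and 0 to 4. The cause of these shifts was not tested.

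Replicate numbers were not taken as pairs: 5 of the 6 same-numbered pairs correlated between 0.23 and 0.50, but replicate 5 at -0.10, so that not every pair passed 0.1. Pairs with different numbers ranged from -0.67 to 0.62, the highest of them above every same-numbered pair. Of 12 samples 4 correlated best with their own number, a hint from the data and not from the design. The replicate block was fitted on the compared libraries alone. It called 1176 genes in controls, 52% of them higher, where the same 12 libraries without it gave 438, 31.1% of them higher. For the difference between genotypes it called 0, beside 7 on the same libraries without it. The replicate block with offsets gave 2042 in controls and 18 for the difference. Gfap was called under the block (adjusted p = 0.0492). In counts simulated at these depths, without a GC trend, 61% of 1.5-fold changes in genes of at least 1 CPM were recovered.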

Other observations

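The clustered protocadherins, cell surface proteins whose many isoforms let neurons tell themselves from others, were noticed after their values were seen. Of 58 tested, 23 were called higher and none lower in controls, beside 1.67% higher and 2.51% lower over all genes tested. In 57 the log2 fold change was positive, and the median was 0.64 (0.33 in CHMP2Bintron5 cord). The family was not followed through the alternative fits, in which the number of higher calls over all genes varied. By cluster, 3 of 14 alpha, 11 of 22 beta and 9 of 22 gamma genes were called. Members of the alpha and of the gamma cluster share exons, so counts per gene are uncertain there.

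A large fitted fold change can rest on a few libraries. The pseudogene Gm5514 ranged from 0.0335 to 14.1 CPM at 1.5 months and from 0.0237 to 0.162 CPM at 10-12 months. It was called by edgeR (adjusted p = 0.027) although the ranges overlapped. The call was lost without replicate 1, 2, 5 or 6 at 10-12 months (adjusted p 0.0541 to 0.0644).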
